A study of Mus musculus with 3 samples.

Results

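Single barcodes with RNA of Runx2, the transcription factor that commits mesenchyme to bone, but with none of 4 genes of the maturing osteoblast were examined in the palate of wild-type C57BL/6J mouse embryos. Embryonic stages E13.5, E14.5 and E15.5 gave 1 library each from 3 pooled embryos, after TrypLE digestion and methanol fixation before droplet capture. A barcode stands for a captured cell, and a unique molecular identifier (UMI) for a captured RNA molecule. Among barcodes with at least 500 detected genes, a member had at least 2 UMIs of Runx2 and a UMI of at least 1 of Prrx1, Prrx2, Twist1, Twist2 and Pdgfra, which mark mesenchyme. It had no UMI of Sp7, Ibsp, Alpl or Ifitm5 (osteoblast genes), Pax9 (palatal mesenchyme), Epcam (epithelium), Pecam1 (endothelium) or Tyrobp (myeloid cells). The rule found 497 members among 8107 barcodes, with 90 in the E13.5 library (of 3692), 166 in the E14.5 library (of 1775) and 241 in the E15.5 library (of 2640). All embryos were unmanipulated, and 3 stages with 1 library each cannot separate stage from library.

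Bone of the palate forms by intramembranous ossification, in which mesenchymal cells condense and turn into osteoblasts without a cartilage model. RUNX2 acts first, SP7 (osterix) acts downstream of it, and alkaline phosphatase (Alpl), bone sialoprotein (Ibsp) and Ifitm5 come with the matrix that mineralises. Cells with Runx2 and without those later genes are therefore usually called osteoprogenitors. BMP, Wnt, FGF and Hedgehog ligands act on such cells, and the transcription factors Msx1 and Mef2c are known regulators of craniofacial bone.

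The 3 libraries held 5293977 to 11472663 UMIs. Members had a median of 3191.5, 1978.5 and 2070 UMIs (E13.5, E14.5 and E15.5, the order of all values below). Mesenchymal barcodes that met the same rule but had no Runx2 UMI, 531, 367 and 489 in number, had 2340, 1502 and 1561. Depth thus differed between the sets, and no UMI of a gene is not absence of its RNA at these depths. Between 1 and 3 barcode sequences were shared by each pair of libraries, and 1 of those shared sequences was a member. Neuronal RNA set the E13.5 library apart: the 8 neuronal markers summed to 1506, 371 and 255 CPM (UMIs scaled to a common total of 1e6) in members and to 2099, 352 and 375 CPM in the barcodes without Runx2, and 47, 40 and 57 members held at least 2 UMIs over neuronal, neural progenitor, glial, muscle and mural markers, as did 317 of 531, 68 of 367 and 95 of 489 barcodes without Runx2. Without all such barcodes the main comparison below called 396 genes in place of 231. The summed levels of the epithelial (18.1 to 43.6 CPM), endothelial (15.6 to 28.5 CPM) and myeloid (2.59 to 43.4 CPM) lists were low in members, with Cldn5 and Tie1 at 0 in all 3 libraries. The 15 chondrogenic genes summed to 2859, 2752 and 1831 CPM in members and to 1496, 2129 and 742 CPM in the barcodes without Runx2. Without Sox6, which is one of them, the sums were 1791, 1268 and 662 CPM against 1018, 1907 and 613 CPM, so that members were lower at E14.5.

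The label of osteoprogenitors was checked against its markers. Runx2 itself (ENSMUSG00000039153, chromosome 17, 44495987 to 44814797, minus strand, mm10) stood at 1058, 1817 and 2486 CPM in members, and a member had a median of 3, 4 and 4 Runx2 UMIs and at most 22, 19 and 44. Members with exactly 2, the least the rule takes, numbered 35, 56 and 58, and the 70, 97 and 127 mesenchymal barcodes with 1 Runx2 UMI lay just outside it. Prrx1, a homeobox gene of limb and face mesenchyme, was detected in 84.4%, 85.5% and 90.5% of members. Twist1, a bHLH factor that restrains osteoblast differentiation, was detected in only 26.7%, 33.7% and 26.6%, and its level of 93.3, 202 and 159 CPM was no higher than in the barcodes without Runx2 at E14.5 and E15.5 (87.5, 233 and 230.3 CPM). These values were used by the rule or stood among its alternatives and are given as a description. Prrx1 was thus detected in most members and Twist1 in a minority.

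Members made up 11.3% of mesenchymal barcodes at E13.5 (90 of 796, exact Clopper-Pearson 95% interval 9.19 to 13.7). In the E14.5 library they made up 16.5% (166 of 1004, interval 14.3 to 19.0), and in the E15.5 library 16% (241 of 1504, interval 14.2 to 18.0). Here mesenchymal means a UMI of any of the 5 mesenchymal genes and none of Epcam, Pecam1 or Tyrobp, and intervals cover counting error only. When every barcode was thinned to 1500 UMIs before the rule was applied, the shares were 7.09%, 16.3% and 20.4%, against 16.5% and 16% without thinning at E14.5 and E15.5. No test between stages was possible with 1 library each.

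The main comparison asked what else differs in mesenchymal barcodes that carry Runx2. UMIs were summed over members and over barcodes without Runx2 in each library, and the 3 pairs of sums were compared with edgeR's quasi-likelihood test with the library as a block. Of 8532 genes tested, 150 were higher in members (1.76%) and 81 lower (0.949%) at an adjusted p under 0.05, and 227 of these 231 (2.71% of genes tested) went the same way in all 3 libraries. The genes of the rule were left out of the test. Without the library term 0 genes passed (392 at an unadjusted p under 0.05), and DESeq2 with the library term called 63. Without the E13.5 library the count was 401.

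Pdzrn4, a PDZ and RING finger gene (ENSMUSG00000036218, chromosome 15, 92396881 to 92771819, plus strand), had the largest fold among the higher genes. It stood at 570.3, 511 and 700.4 CPM in members and at 78.5, 82.3 and 129 CPM in barcodes without Runx2, and the sets did not overlap (log2 fold 2.61 ± 0.17 (SE), adjusted p = 1.93e-07). Sox6 (ENSMUSG00000051910, chromosome 7, 115470872 to 116038796, minus strand), which encodes an SRY-box factor best known from cartilage, stood at 1068, 1484 and 1169.5 CPM against 477, 222 and 129 CPM (log2 fold 2.30 ± 0.27 (SE), adjusted p = 4.73e-04). The other set was highest at E13.5. After thinning to 1500 UMIs, a Sox6 UMI was present in 54.2%, 53.3% and 40.7% of members, in 31.8%, 11.4% and 9.49% of the barcodes without Runx2 and in 18.2%, 17.4% and 8.89% of endothelial and myeloid barcodes, which serve as the background of free RNA. Without thinning the shares were 71.1%, 62.7% and 48.1% in members, 36.3%, 12.5% and 10.6% in barcodes without Runx2 and 37.5%, 28.4% and 11.6% in the background. For Pdzrn4 the thinned shares were 27.8%, 29.9% and 32.1% in members, 9.47%, 4.89% and 9.88% without Runx2 and 4.55%, 7.25% and 4.44% in the background. Unthinned they were 38.9%, 37.3% and 37.3% in members, 13.7%, 8.17% and 15.1% without Runx2 and 12.5%, 12.5% and 7.44% in the background. Thinned background barcodes had a median of 3582 to 6042 UMIs before thinning, members 2792 to 3751.5. The background held only 24, 88 and 121 barcodes, of which 22, 69 and 90 could be thinned. A thinned share of 4.55% at E13.5 is thus 1 barcode (exact Clopper-Pearson 95% interval 0.115 to 22.8).

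**Figure D1:**
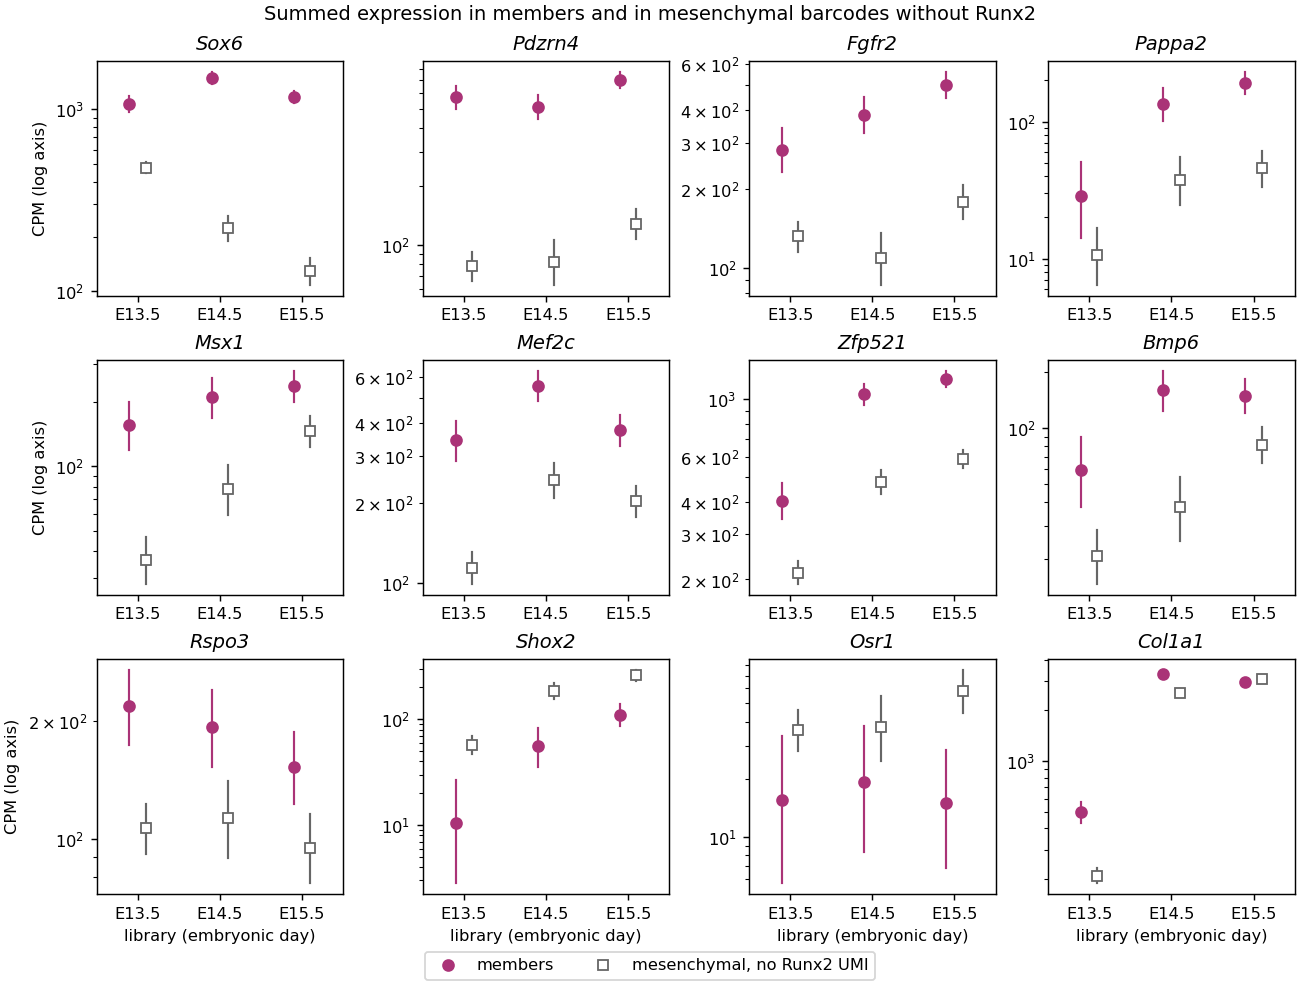
Level of 12 genes in CPM (log axis) in the 3 libraries, for members (filled circles) and mesenchymal barcodes without a Runx2 UMI (open squares); bars are exact Poisson 95% intervals of each sum. Sox6 and Pdzrn4 lie higher and Shox2 and Osr1 lower in members in every library, while Col1a1 is higher in members at E13.5 and E14.5 only.

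The bone regulators other than Runx2 followed. Of 19 tested genes of the list of bone transcription factors 4 were higher and 0 lower, with a median log2 fold of 0.47. Over all genes tested 1.76% were higher, 0.949% were lower and the median was -0.01. Msx1, a homeobox factor of face and palate mesenchyme, stood at 156, 209.7 and 236 CPM in members and 36.5, 78.1 and 146 CPM in the other set, every member sum above every other sum (log2 fold 1.30 ± 0.22 (SE), adjusted p = 0.00500). Mef2c, a MADS-box factor, stood at 345, 554 and 377 CPM against 114, 244 and 203 CPM (log2 fold 1.18 ± 0.17 (SE), adjusted p = 0.00142). Zfp521, a zinc finger gene known as a partner of Runx2, stood at 404, 1046 and 1199.7 CPM against 213, 477 and 586 CPM (log2 fold 1.00 ± 0.15 (SE), adjusted p = 0.00174). Msx1, Mef2c and Zfp521 were each higher in members in all 3 libraries. Msx1 lost its call with at least 3 Runx2 UMIs and with every barcode thinned before the rule, Mef2c and Zfp521 only without the library term. After thinning a Mef2c UMI was present in 30.6%, 45.8% and 35.8% of members, 11.7%, 25.5% and 19.8% of the set without Runx2 and 40.9%, 58.0% and 56.7% of endothelial and myeloid barcodes. The last share lay above both others in every library, so for Mef2c those barcodes give no level of free RNA, and the members' share is not set against one. Runx1, a Runx2 paralog, stood at 181, 183 and 261 CPM against 51.6, 152 and 158 CPM with an adjusted p of 0.0504 and did not pass, and Cbfb, the partner subunit of RUNX proteins, did not pass either (log2 fold 0.36, adjusted p = 0.292). Sox11 had the lowest fold of the list at -0.55 (adjusted p = 0.0620). Dlx5, a regulator of Sp7, was nearly undetected, with 8, 9 and 7 UMIs in members, and did not pass. Msx2, Dlx3 and Dlx6 had too few UMIs to be tested.

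Bone matrix RNA was compared next, since the rule removed only 4 osteoblast genes. Members had no UMI of Bglap, Bglap2, Dmp1, Mepe or Phospho1, which belong to mature osteoblasts, osteocytes and mineralisation, and 0, 0 and 1 UMIs of Spp1 (osteopontin). A count of 0 is read against a floor of 3 UMIs, which is 7.78, 7.23 and 5.03 CPM in the 3 sums. Of 19 tested genes of the matrix and mineral list 2 were higher and 0 lower (1.76% and 0.949% over all genes tested), with a median log2 fold of 0.18. These were Col12a1, a fibril-associated collagen, at 169, 658 and 591 CPM against 72.9, 371 and 323 CPM (log2 fold 0.91 ± 0.16 (SE), adjusted p = 0.00500), and Tnc (tenascin C) at 77.8, 253 and 218 CPM against 32.0, 127 and 157 CPM (log2 fold 0.81 ± 0.19 (SE), adjusted p = 0.0326). Col1a1, the main collagen of bone and skin, stood at 500.3, 3297 and 2941 CPM in members and 210.4, 2544 and 3075 CPM in the other set and did not pass (adjusted p = 0.227), and Omd, the gene with the largest fold of the list, stood at 0, 33.7 and 62.0 CPM and did not pass (adjusted p = 0.166). Type I collagen RNA was therefore abundant in both sets from E14.5 on. Thbs2 (thrombospondin 2), the 1 called gene of 17 tested in the fibroblast matrix list, stood at 10.4, 130.1 and 166 CPM against 6.73, 51.6 and 67.0 CPM (log2 fold 1.22 ± 0.23 (SE), adjusted p = 0.00932).

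Signalling pathways were described next. In the FGF list 2 of 10 tested genes were higher and 1 lower, against 1.76% and 0.949% over all genes tested. The receptor gene Fgfr2, mutated in craniosynostosis syndromes, stood at 283, 383 and 499 CPM in members and 132, 109 and 179 CPM in the other set, without overlap (log2 fold 1.42 ± 0.17 (SE), adjusted p = 5.23e-04). The ligand gene Fgf7 stood at 20.7, 69.9 and 51.9 CPM against 4.49, 19.5 and 24.3 CPM (log2 fold 1.52 ± 0.32 (SE), adjusted p = 0.0166), on 8, 29 and 31 UMIs in members. Spry2, a feedback inhibitor of FGF signalling, was lower, at 31.1, 45.8 and 25.1 CPM against 55.0, 117 and 62.2 CPM (log2 fold -1.22 ± 0.25 (SE), adjusted p = 0.0133). The list median was 0.08. A Fgfr2 UMI was present in 29.2%, 43.0% and 40.1% of thinned members, in 13.4%, 12.5% and 14.6% of the set without Runx2 and in 4.55%, 14% and 13.3% of the background. Without thinning the shares were 57.8%, 50% and 51.0% in members, 27.3%, 16.6% and 18.2% without Runx2 and 20.8%, 34.1% and 24.8% in the background.

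In the BMP list 2 of 21 tested genes were higher and 0 lower (median 0.16), against 1.76% and 0.949% over all genes tested. Both are ligand genes. Bmp6 stood at 59.6, 159 and 149 CPM against 20.8, 37.7 and 81.6 CPM (log2 fold 1.37 ± 0.24 (SE), adjusted p = 0.00500) and Bmp5 at 41.5, 69.9 and 55.3 CPM against 23.0, 32.1 and 17.5 CPM (log2 fold 1.17 ± 0.27 (SE), adjusted p = 0.0285). Bmp2 and Bmp4 had 8, 11 and 10 and 6, 10 and 10 UMIs in members and did not pass, nor did the receptor gene Bmpr1a at 197, 193 and 255 CPM against 180.1, 179.9 and 173 CPM (adjusted p = 0.492). Bmp5 lost its call under 9 of the alternative settings, DESeq2 included, and Bmp6 under 2. The BMP antagonist gene Fst had the lowest fold of the list at -1.35 (adjusted p = 0.0672).

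In the Wnt list 4 of 28 tested genes were higher and 0 lower (1.76% and 0.949% over all genes tested), with a median of 0.32. The called genes act on Wnt signals outside the cell or at the membrane. Rspo3, which amplifies Wnt signals, stood at 218, 193 and 152 CPM against 107, 113 and 95.2 CPM (log2 fold 0.80 ± 0.17 (SE), adjusted p = 0.0187), and Znrf3, whose product removes Frizzled receptors and is opposed by R-spondins, at 135, 142 and 173 CPM against 93.7, 90.7 and 71.9 CPM (log2 fold 0.79 ± 0.19 (SE), adjusted p = 0.0380). The secreted antagonist genes Frzb, at 28.5, 65.1 and 51.9 CPM against 10.7, 33.5 and 21.4 CPM, and Sostdc1, at 54.4, 118 and 104 CPM against 17.4, 34.9 and 76.8 CPM, passed with adjusted p = 0.0381 and 0.0354. Frzb and Sostdc1 each lost the call under 11 of the alternative settings and Rspo3 and Znrf3 under 8 each, DESeq2 included for all 4. Neither Axin2 nor Lef1 passed: Axin2 stood at 31.1, 36.1 and 45.2 CPM against 28.6, 54.4 and 40.8 CPM (adjusted p = 0.856) and Lef1 at 98.5, 72.3 and 112 CPM against 71.2, 124 and 20.4 CPM (adjusted p = 0.422). Dkk2, an antagonist gene, stood at 72.6, 475 and 598 CPM against 57.2, 269 and 393 CPM (adjusted p = 0.0673), and Sost, the gene of sclerostin, had 0 UMIs in members of every library. Rspo2 had the lowest fold of the list, -0.74, and did not pass (adjusted p = 0.225).

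The next lists also stand beside 1.76% of all genes tested called higher. In the Hedgehog list 1 of 10 tested genes was higher (median 0.43), the transcription factor gene Gli3 at 285, 395 and 579.7 CPM against 199, 273 and 293 CPM (log2 fold 0.66 ± 0.16 (SE), adjusted p = 0.0380). The target genes Ptch1 and Gli1 did not pass (adjusted p = 0.384 and 0.554). In the TGFb list 1 of 12 was higher (median 0.09), Inhba, the activin A subunit gene, at 33.7, 94.0 and 117 CPM against 17.4, 46.0 and 55.4 CPM (log2 fold 1.00 ± 0.22 (SE), adjusted p = 0.0237). Inhba lost the call under 8 of the alternative settings and Gli3 under 7, DESeq2 included for both. None of the 10 tested genes of the suture stem cell list passed, Gli1 and Lepr among them (edgeR; Lepr adjusted p = 0.0771). In the tendon list Mkx (mohawk) passed, 1 of 2 tested, at 31.1, 229 and 206 CPM against 26.9, 83.7 and 89.4 CPM (log2 fold 1.08 ± 0.22 (SE), adjusted p = 0.0133).

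**Figure D2:**
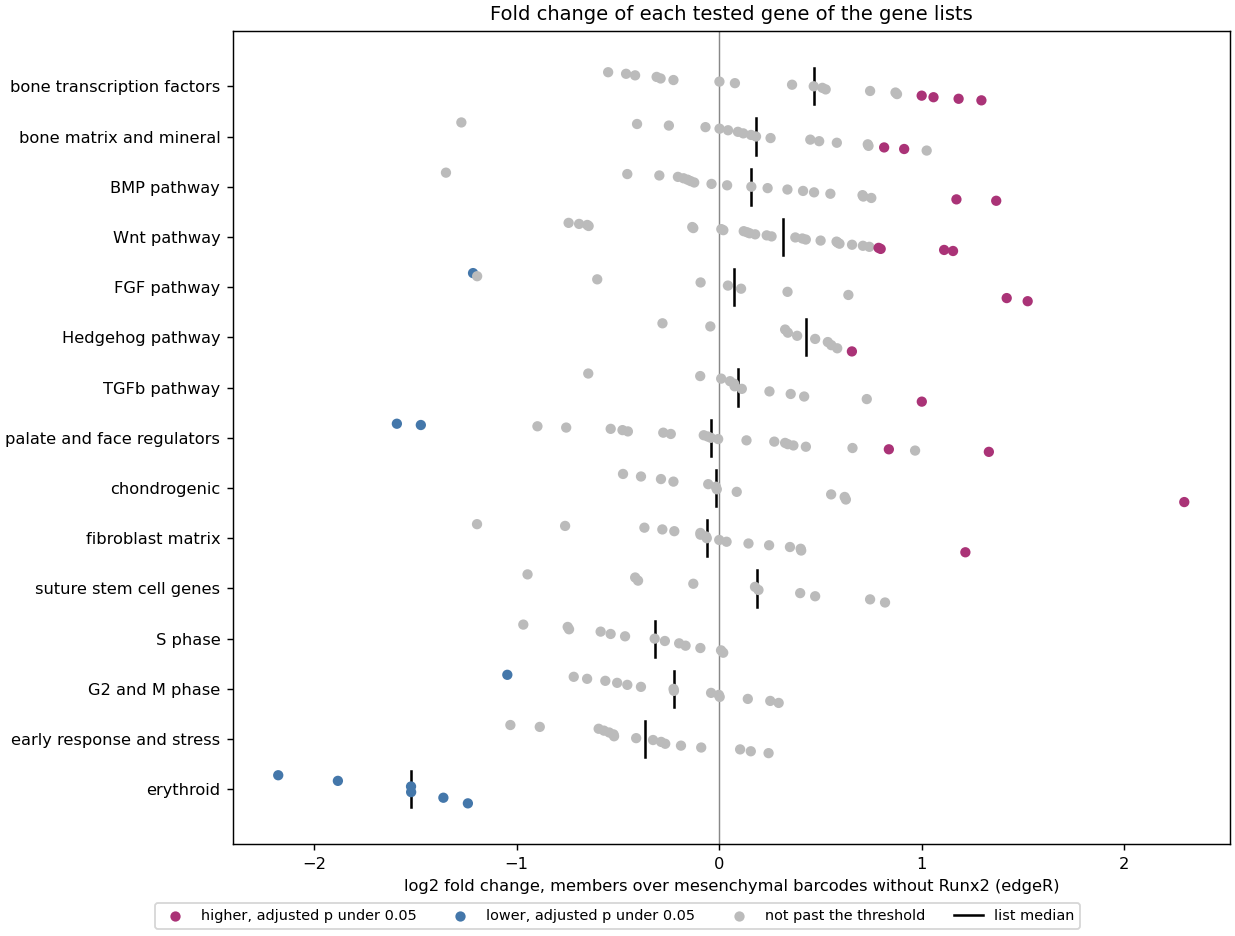
Log2 fold change of members over mesenchymal barcodes without Runx2 (x axis) for every tested gene of 15 gene lists (rows), coloured by call; black bars are list medians. Called genes of the bone, BMP, Wnt and matrix lists lie to the right of 0, and the 6 tested globin genes lie to the left.

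Among palate and face regulators 2 of 23 tested genes were higher and 2 lower (median -0.04), against 1.76% and 0.949% over all genes tested. Shox2, a homeobox gene of the anterior palate (ENSMUSG00000027833, chromosome 3, 66971727 to 66981771, minus strand), stood at 10.4, 55.4 and 111 CPM in members and 57.8, 184 and 260.4 CPM in the other set (log2 fold -1.59 ± 0.22 (SE), adjusted p = 0.00102). Both sets had more Shox2 at the later stages, and members were lower within each library. A Shox2 UMI was present in 1.39%, 8.41% and 13.6% of thinned members, 6.13%, 21.2% and 32.0% of the other set and 4.55%, 2.90% and 2.22% of the background, and unthinned in 4.44%, 11.4% and 17.8% of members, 9.98%, 23.2% and 29.9% of the other set and 16.7%, 14.8% and 8.26% of the background. At E13.5 the members' share lay below the background, on 1 of 72 thinned members and 1 of 22 background barcodes, and is not read as expression. Osr1, a zinc finger gene of early mesenchyme, stood at 15.6, 19.3 and 15.1 CPM against 36.5, 37.7 and 58.3 CPM (log2 fold -1.47 ± 0.33 (SE), adjusted p = 0.0210), and its member sums rest on 6, 8 and 9 UMIs. Its paralog Osr2, a regulator of palatal shelf growth, did not pass (log2 fold -0.76, adjusted p = 0.241). Zfhx3 stood at 749, 586 and 752 CPM against 449, 220.4 and 189 CPM (log2 fold 1.33 ± 0.20 (SE), adjusted p = 0.00178). A Zfhx3 UMI was present in 43.1%, 36.4% and 44.4% of thinned members, 33.4%, 19.6% and 19.0% of the other set and 31.8%, 30.4% and 28.9% of the background, and unthinned in 56.7%, 50.6% and 51.5% of members, 42.9%, 25.1% and 21.9% of the other set and 62.5%, 50% and 42.1% of the background, which was above members at E13.5. Zeb2, a factor of neural crest mesenchyme, stood at 420.0, 966 and 1161 CPM against 269, 441 and 652 CPM (log2 fold 0.84 ± 0.15 (SE), adjusted p = 0.00720).

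In the cartilage list Sox6 was the 1 called gene of 12 tested (2.71% of all genes tested were called in either direction), and the list median was -0.01. Sox9, the master regulator of cartilage, stood at 207, 108 and 43.6 CPM against 126, 129.7 and 79.7 CPM (adjusted p = 0.935) and Col2a1, its collagen, at 306, 267 and 88.8 CPM against 150.3, 536 and 139 CPM (adjusted p = 0.724). Both were higher in members at E13.5 and lower at E14.5 and E15.5. Sox5, the closest relative of Sox6 in the list, stood at 710.3, 313 and 276 CPM against 497, 265 and 115 CPM and did not pass (adjusted p = 0.0771). None of the 13 tested S phase genes and 1 of 15 G2 and M phase genes passed, Nusap1, a spindle protein gene, at 62.2, 69.9 and 68.7 CPM against 129, 197 and 99.1 CPM (log2 fold -1.05 ± 0.21 (SE), adjusted p = 0.0133). The medians of these lists were -0.32 and -0.23, and that of the early response and stress list, with 0 of 16 called, was -0.37.

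Further genes had large folds. Pappa2, a protease that frees insulin-like growth factors, stood at 28.5, 135 and 193 CPM against 10.7, 37.7 and 45.7 CPM (log2 fold 1.84 ± 0.23 (SE), adjusted p = 5.23e-04). Npnt (nephronectin), an integrin ligand of the bone and kidney matrix, stood at 38.9, 98.8 and 161 CPM against 6.17, 39.1 and 48.6 CPM (log2 fold 1.72 ± 0.25 (SE), adjusted p = 0.00174), and a Npnt UMI was present in 5.56%, 10.3% and 19.1% of thinned members, 1.11%, 4.35% and 4.35% of the set without Runx2 and 0%, 13.0% and 4.44% of the background, which lay above members at E14.5. Unthinned these were 11.1%, 16.3% and 22% in members, 2.07%, 5.18% and 6.95% without Runx2 and 16.7%, 22.7% and 16.5% in the background. Adamts3, a procollagen protease, stood at 101, 123 and 95.5 CPM against 32.0, 36.3 and 20.4 CPM (log2 fold 1.83 ± 0.23 (SE), adjusted p = 5.23e-04). Ptgfr, a prostaglandin receptor gene, Prtg (protogenin), Rttn (rotatin), Ptprr and Cmya5 had log2 folds of 1.71, 1.73, 1.70, 1.82 and 1.83. Ccdc163 (log2 fold 1.88) and Cep68 (1.73) rest on single barcodes, since 1 member held 57 of 63 Ccdc163 UMIs at E14.5 and 95 of 114 Cep68 UMIs lay in 1 member there. With every barcode thinned before the rule, the Cep68 fold was -0.28. In 14 of the 231 called genes more than 50% of at least 1 sum of 10 or more UMIs came from 1 barcode.

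On the lower side the largest fold belonged to Cntnap2, a neuronal adhesion gene, at 98.5, 41.0 and 8.38 CPM against 243, 73.9 and 534 CPM, but 342 of its 550 UMIs in the E15.5 set without Runx2 lay in 1 barcode. Fabp7, a radial glia gene, was lower too (88.1, 12 and 6.70 CPM against 141, 26.5 and 49.5 CPM, log2 fold -1.26 ± 0.32 (SE), adjusted p = 0.0459), and lost the call under 11 of the alternative settings, DESeq2 included. Beside both genes stand the neuronal sums given above. All 6 tested globin genes were lower, 6 of 6 against a background of 0.949% of genes. Hbb-bs, adult beta globin, stood at 339.6, 1648 and 2505 CPM against 1507, 4591 and 3452 CPM (log2 fold -1.36 ± 0.23 (SE), adjusted p = 0.00370) and Hbb-y, embryonic globin, at 646, 67.5 and 1.68 CPM against 4376, 102 and 21.4 CPM (log2 fold -2.18 ± 0.34 (SE), adjusted p = 0.00230). Hbb-bt had a log2 fold of -1.24, Hba-a1 and Hba-a2, near-identical copies whose reads may be split, both -1.52, and Hba-x -1.88. Globin RNA belongs to red cells, and its sums hung on few barcodes: 1259 of 7801 Hbb-y UMIs in the E13.5 set without Runx2 came from 1 barcode. After barcodes with at least 2% globin and erythroid UMIs were left out, all 6 globin genes lost their calls. That filter chose barcodes by the same RNA, so the loss is no separate support. Alas1 and Gcnt2 (-1.98 and -2.08) also had 1 barcode with over 50% of a sum.

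Other genes with large folds were lower. Fibin, a secreted factor gene, stood at 7.78, 28.9 and 26.8 CPM against 23.6, 103 and 101 CPM (log2 fold -1.87 ± 0.27 (SE), adjusted p = 0.00153). Agtr2, an angiotensin receptor gene abundant in fetal mesenchyme, stood at 7.78, 16.9 and 21.8 CPM against 9.54, 53.0 and 93.3 CPM (log2 fold -1.76 ± 0.34 (SE), adjusted p = 0.0111). The lipid carrier genes Clu and Apoe stood at 15.6, 33.7 and 16.8 and 7.78, 21.7 and 15.1 CPM in members against 28.6, 102 and 69.0 and 12.3, 75.3 and 50.5 CPM, with log2 folds of -1.64 and -1.63. Glipr2, Sh3gl3 and Shisa9 had log2 folds of -1.90, -1.66 and -2.14, each on fewer than 10 member UMIs per library. Dcn (decorin), a fibroblast marker, stood at 25.9, 166 and 178 CPM against 49.4, 197 and 372 CPM and did not pass (adjusted p = 0.0576).

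Gene length went with these calls. The 150 higher genes had a median annotated span of 232 kb against 35.1 kb over all tested genes, and 81.3% of them were over 100 kb against 21.6% of all. The 81 lower genes had a median span of 12.9 kb. In the same barcodes, genes over 100 kb gave a median of 27.2%, 31.5% and 37.7% of a member's UMIs and 21.8%, 23.2% and 27.1% in the set without Runx2. Runx2 itself spans over 100 kb, and whether intronic reads were counted is not given in the sources used here. When the sets were matched on that share within each library, in bins of 5 percentage points, 51 genes passed, 28 higher and 23 lower, and 38 of the 231 calls were among them. Of the 213 calls tested again 210 kept their sign, and the median signed log2 fold over them was 0.53, against 0.64 to 0.83 under the other settings. The matched sets without Runx2 held 90, 166 and 236 barcodes, so fewer UMIs stood behind that test. Pdzrn4, Sox6, Mef2c and Msx1 were still called, with log2 folds of 2.68, 2.16, 1.51 and 1.80, as was Shox2, at -1.93. Fgfr2 (1.06) and Adamts3 (1.04) were not. The part of length in the calls was not tested further.

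**Figure D3:**
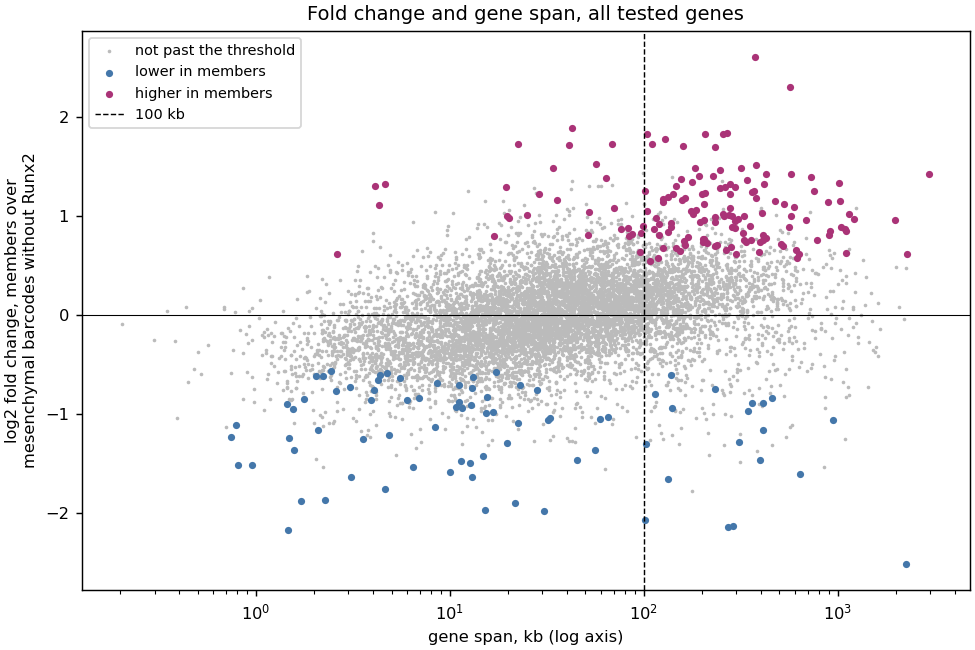
Log2 fold change of members over mesenchymal barcodes without Runx2 (y axis) against annotated gene span in kb (log axis) for the tested genes with a span, coloured by call; the dashed line marks 100 kb. Most higher genes lie to the right of the line and most lower genes to the left.

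Of the 53 genes named for this comparison by the rule, 8 kept their call under every setting tried except the fit without the library term: Pdzrn4, Sox6, Pappa2, Npnt, Zfhx3, Mef2c, Zfp521 and, on the lower side, Shox2. With DESeq2, 37 of the 53 lost the call, among them every called gene of the Wnt, Hedgehog, TGFb and tendon lists, Fgf7, Spry2, Bmp5, Tnc, Thbs2, Osr1, Nusap1, Fabp7 and the globin genes. Over those settings and that fit the log2 fold of Pdzrn4 ranged from 1.96 to 2.86 and that of Sox6 from 1.85 to 2.95. Shox2 ranged from -1.94 to -1.03.

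Levels were also read along the number of Runx2 UMIs, from 0 through 1, 2 and 3 to 4 up to 5 or more, in mesenchymal barcodes that met the rest of the rule. The class with 1 UMI entered neither set of the test above. The other classes hold the same barcodes as those sets, so their order is no separate support. Sox6 stood at 222, 644, 665, 1463 and 2128 CPM in the 5 classes at E14.5 and at 129, 353, 566, 1021 and 1534 CPM at E15.5, higher with each class. At E13.5, where the class without Runx2 was already high, it stood at 477, 524, 956, 1004 and 1247 CPM. Pdzrn4 was higher with each class at E14.5 as well (82.3, 282, 418, 443 and 638 CPM), but not at E13.5 (78.5, 271, 727, 478 and 502 CPM) or E15.5 (129, 204, 744, 449 and 838 CPM), where the class with 2 UMIs lay above that with 3 to 4. Fgfr2 was highest in the class with 5 or more in every library, for example 179, 274, 240.2, 349 and 709.6 CPM at E15.5. Msx1 was highest with 2 Runx2 UMIs at E14.5 and E15.5, at 78.1, 106, 394, 143 and 125 CPM and 146, 194, 465, 177 and 170.4 CPM, and highest with 5 or more at E13.5. Shox2 was lower in every class of members than in the class without Runx2, at 57.8, 64.2, 23.0, 7.84 and 0 CPM at E13.5, 184, 121, 57.4, 52.5 and 56.3 CPM at E14.5 and 260.4, 159, 101, 155 and 87.0 CPM at E15.5, with no steady order among the classes of members at E14.5 and E15.5. Col1a1 was higher with each class at E13.5 (210.4, 242, 421, 471 and 612 CPM). It was highest with 2 Runx2 UMIs at E14.5 (2544, 3085, 3947, 3128 and 2942 CPM) and, by less, at E15.5 (3075, 3185, 3301, 3034 and 2720.1 CPM). Classes with more Runx2 UMIs were also deeper, with a median of 1561 UMIs per barcode with none and 2311.5 with 5 or more at E15.5, and no test was made over the classes. The share of UMIs from genes over 100 kb was not matched over the classes either.

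**Figure D4:**
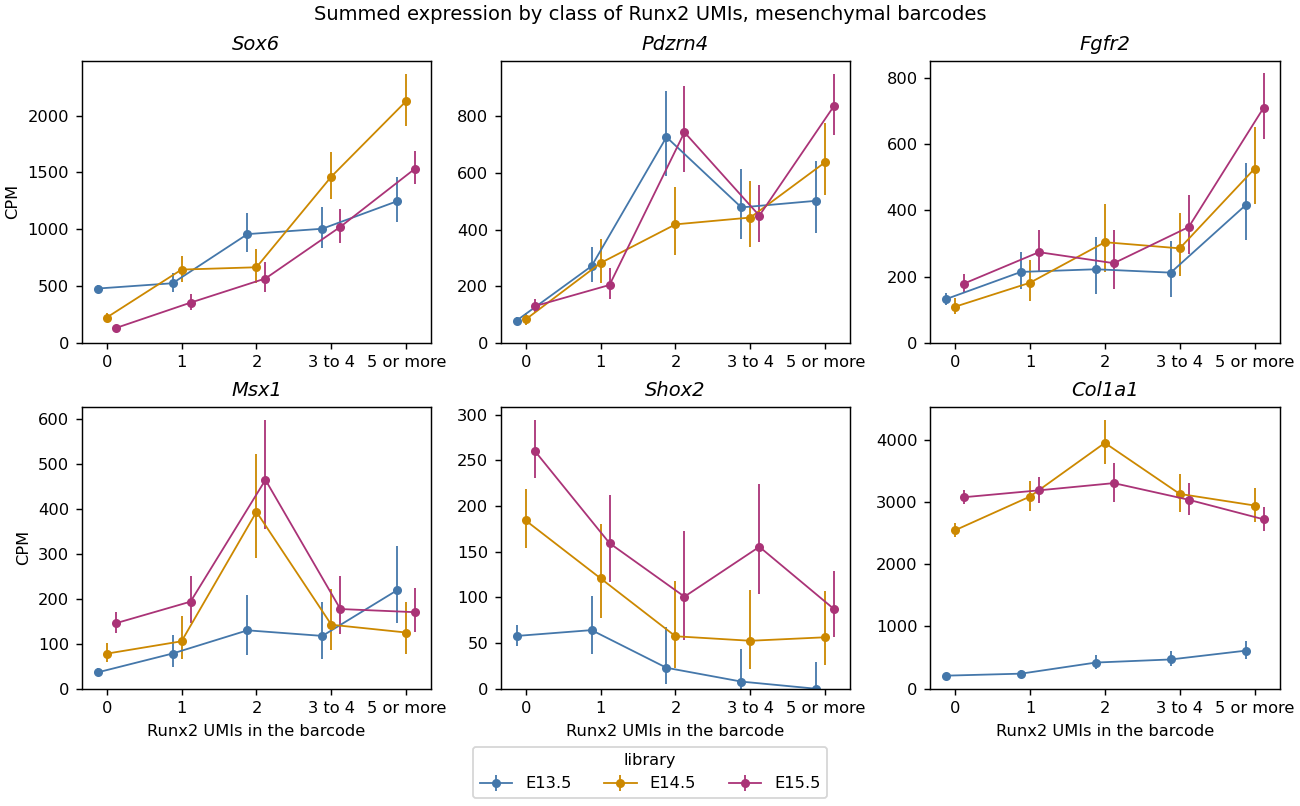
Level in CPM (y axis, from 0) of 6 genes in mesenchymal barcodes grouped by their Runx2 UMIs (x axis), 1 line per library; bars are exact Poisson 95% intervals. Sox6 and Fgfr2 are highest with 5 or more Runx2 UMIs in every library, Shox2 is lower there than with 0, and Col1a1 is higher with each class at E13.5 only.

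RUNX proteins bind the letters TGTGGT, which read ACCACA on the other strand, so the 250 bases before each annotated start were searched for either form in RefSeq promoter windows (GRCm38.p6). At least 1 match was present in 15 of 172 windows of genes higher in members (8.72%, 112 of the 149 symbols of the 150 genes matched to a window), in 7 of 91 windows of lower genes (7.69%) and in 9.67% of 8825 windows of all tested genes. Among all 32851 windows of that length 14.0% had a match. Windows of Pappa2, Npnt, Zfhx3, Mef2c and Shox2 held no match. The 4 matches in windows of Runx2, Sox6 and Pdzrn4, the gene of the rule and the genes with the largest higher folds, are shown with the letters around them; capitals mark the 6 letters of the motif. A match describes sequence and is no sign of binding.
Runx2, 80 bases before a RefSeq start that lies inside the annotated span given above, minus strand, chr17:44814690-44814719: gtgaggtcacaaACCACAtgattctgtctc
Sox6, 63 bases before the fourth annotated start, minus strand, chr7:115846186-115846215: tactccctcctcTGTGGTgtgaatgtgcaa
Sox6, 93 bases before the fifth annotated start, minus strand, chr7:115824786-115824815: actgtgaggccgACCACAaagctccactgt
Pdzrn4, 160 bases before the second annotated start, plus strand, chr15:92596937-92596966: gaattttgtttaACCACActacatttgctt

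The next comparison set members against barcodes that met the same rule but held a UMI of Sp7, Ibsp, Alpl or Ifitm5, that is, Runx2-positive barcodes with bone genes (16, 111 and 179). These barcodes were deeper, with a median of 5517, 2904 and 3164 UMIs. Their Runx2 level was 896, 2824 and 2722 CPM. Most of them were in the set through Alpl, detected in 87.5%, 83.8% and 88.3%. Sp7 was detected in 18.8%, 22.5% and 20.7%, Ibsp in 12.5%, 11.7% and 11.2% and Ifitm5 in 12.5%, 3.60% and 5.03%. Of 6767 genes tested, 28 were called (0.414%), and 16 were higher in members (0.236%) and 12 lower (0.177%). The E13.5 sum of the bone gene set holds only 16 barcodes. The count was 151 without the E13.5 library, 9 without E14.5, 58 without E15.5 and 0 without the library term (131 genes at an unadjusted p under 0.05), and DESeq2 called 6. Of the 18 genes named for this comparison by the rule, 12 lost the call with DESeq2, 13 with long-gene shares matched and 12 without E14.5, while Smpd3 lost it under 2 of the settings and Col8a1 and Fat3 under 3 each. With every barcode thinned before the rule, which left 2 libraries in this comparison, 3 genes passed and 0 of the 25 of these calls that could be tested were among them.

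Smpd3, a sphingomyelinase gene needed for mineralisation, was lower in members, at 88.1, 41.0 and 51.9 CPM in members and 193, 230.1 and 311 CPM with bone genes, without overlap (log2 fold -2.19 ± 0.24 (SE), adjusted p = 5.87e-05). After thinning a Smpd3 UMI was present in 6.94% and 5.61% of members at E13.5 and E14.5, and in 26.7% and 18.0% of barcodes with bone genes. The background had 9.09% and 5.80% there, so the members' share at these stages is not read as expression. Smpd3 was the 1 called gene of 19 tested in the matrix and mineral list, of which 17 had a fold below 0 and the median was -0.39 against -0.0027 over all genes. Omd stood at 0, 33.7 and 62.0 CPM against 30.9, 101 and 141 CPM (adjusted p = 0.0572), Pth1r, the parathyroid hormone receptor gene, at 36.3, 57.8 and 67.0 CPM against 61.8, 134 and 132 CPM (adjusted p = 0.0667) and Col1a1 at 363, 4609 and 5179 CPM with bone genes (adjusted p = 0.646), and none of these passed. Mef2c, higher in members than in the set without Runx2, was lower than with bone genes, at 456, 958 and 671 CPM there (log2 fold -0.75 ± 0.16 (SE), adjusted p = 0.0381), and lost this call under 8 of the settings, DESeq2 included. Npnt was likewise lower, against 84.9, 331 and 297 CPM (log2 fold -1.26 ± 0.21 (SE), adjusted p = 0.00682), and lost this call under 6 of the settings, DESeq2 included. Msx1 (log2 fold -0.07, adjusted p = 0.963) did not pass, which does not show that the sets are alike in it.

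Sox6 stood at 556, 1856 and 1699 CPM with bone genes and did not pass (log2 fold -0.09, adjusted p = 0.959). After thinning, 60.0%, 73.0% and 66.0% of barcodes with bone genes had a Sox6 UMI, against 54.2%, 53.3% and 40.7% of members. At E13.5 that was 9 of 15 barcodes, with an exact Clopper-Pearson 95% interval (32.3 to 83.7) that holds the members' share. The summed Sox6 level at E13.5 was lower with bone genes than in members. A Pdzrn4 UMI was present in 26.7%, 32.6% and 28.8% of barcodes with bone genes. Fat3, an atypical cadherin gene, stood at 192, 272 and 330.1 CPM in members against 378, 837 and 691 CPM (log2 fold -1.28 ± 0.17 (SE), adjusted p = 4.27e-04), and Slc8a3, a sodium-calcium exchanger gene, at 10.4, 43.4 and 36.9 CPM against 54.1, 83.4 and 116 CPM (log2 fold -1.48 ± 0.30 (SE), adjusted p = 0.0333). Slc8a3 lost this call under 10 of the settings, DESeq2 included. Cadps, Dlgap2, 4930469K13Rik and Hbb-bs were lower as well (-1.50, -2.62, -4.86 and -1.56), each with a sum in which 1 barcode held over 50% of the UMIs. For 4930469K13Rik these were 29 of 29 UMIs at E13.5 and 59 of 64 at E15.5. The Hbb-bs fold was 0.15 without the globin-rich barcodes. The erythroid genes summed to 105894, 12049 and 8909 CPM with bone genes and to 2530, 4800 and 6245 CPM in members, and their part in other values was not tested.

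On the higher side Col8a1, a network-forming collagen gene, stood at 54.4, 552 and 364 CPM in members against 23.2, 152 and 119 CPM (log2 fold 1.70 ± 0.20 (SE), adjusted p = 1.03e-04). The 23.2 CPM at E13.5 is the floor of 3 UMIs of that sum. After thinning a Col8a1 UMI was present in 6.94%, 39.3% and 22.8% of members and 13.3%, 14.6% and 17.9% of barcodes with bone genes. By share, members were thus lower at E13.5. Fbn2, a fibrillin gene of elastic microfibrils, stood at 397, 834 and 927 CPM against 131, 518 and 561 CPM (log2 fold 0.84 ± 0.17 (SE), adjusted p = 0.0333), 1 of 17 tested in the fibroblast matrix list. Cntn5, a contactin gene, stood at 161, 330.1 and 816 CPM against 61.8, 162 and 279.6 CPM (log2 fold 1.31 ± 0.19 (SE), adjusted p = 8.94e-04), and Nkain2, Cdh18, Inpp4b, Sorcs3, Dach1 and Clstn2 had log2 folds of 1.65, 1.51, 1.48, 1.39, 1.15 and 1.14. Sorcs3 and Dach1 lost the call under 10 of the settings each, Clstn2 under 9 and Fbn2 under 8, with DESeq2 included for each. In members at E15.5, 187 of 487 Cntn5 UMIs lay in 1 barcode, and for Inpp4b 45 of 69 did at E13.5. All 16 higher genes were over 100 kb, against 24.4% of genes tested here. After matching on the share of UMIs from long genes, 5 genes passed, 4 of them among the 28.

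Members were also set against Runx2-positive mesenchymal barcodes with a UMI of Pax9, the paired-box factor of palatal mesenchyme (12, 44 and 86 barcodes). Of 6511 genes tested, 0 were higher (0%; 342 genes in either direction at an unadjusted p under 0.05) and 2 lower (0.0307%), by edgeR and likewise 2 by DESeq2. Slc25a21 (chromosome 12, 56712634 to 57197472, minus strand) stood at 23.3, 38.6 and 82.1 CPM against 173, 134 and 244 CPM (log2 fold -1.83 ± 0.28 (SE), adjusted p = 0.0437). It overlaps the end of Pax9 on the opposite strand (56691767 to 56712822), the gene that chose the sets, and all 12 UMIs at E13.5 lay in 1 barcode. Plaur, the urokinase receptor gene, stood at 5.18, 2.41 and 3.35 CPM against 101, 69.6 and 215 CPM (log2 fold -5.12 ± 0.46 (SE), adjusted p = 1.74e-04), but its 7, 13 and 75 UMIs of the Pax9 set each came from 1 barcode. The count was 52 without the E13.5 library, 33 without E14.5 and 22 without E15.5, so that 2 is no measure of how alike the sets are. Sox6 stood at 477, 718 and 692 CPM in the Pax9 set and did not pass (log2 fold 0.99, adjusted p = 0.0773), and after thinning 18.2%, 46.3% and 36.0% of the set had a Sox6 UMI and 27.3%, 34.1% and 22.7% a Pdzrn4 UMI. Depth differed here too, with a median of 4367.5, 3660 and 3465 UMIs in the Pax9 set.

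Stages were compared within members without a test, as log2 ratios of CPM with 1 CPM added. Over 11623 genes with a mean of at least 5 CPM the last stage over the first gave a median ratio of -0.04. Matrix RNA was far more abundant at the later stages. Col1a1 stood at 500.3, 3297 and 2941 CPM and Col1a2 at 521, 2788 and 2895 CPM, log2 ratios of 2.55 and 2.47 between E15.5 and E13.5. Postn (periostin) stood at 194, 879.6 and 1009 CPM and Eln (elastin) at 36.3, 267 and 332 CPM. In the fibroblast matrix list 17 of 18 genes had more RNA in the last stage than in the first (median 1.43), and in the bone matrix and mineral list 18 of 24 (median 1.42). Most of the step lay between E13.5 and E14.5, since the medians of E15.5 over E14.5 were 0.10 and 0.13. The set without Runx2 showed the same direction for Col1a1, at 210.4, 2544 and 3075 CPM.

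Hedgehog genes had a ratio of E15.5 over E13.5 above 0 in 11 of 11 cases (median 0.97). The target genes Ptch1 and Gli1 stood at 98.5, 241 and 317 CPM and 7.78, 28.9 and 43.6 CPM in members, and at 94.8, 239 and 166 and 12.9, 26.5 and 17.5 CPM in the set without Runx2. Hhip, a Hedgehog antagonist gene induced by the pathway, stood at 28.5, 45.8 and 139 CPM. For chondrogenic genes the same ratio was above 0 in 2 of 13 cases (median -1.36), and that of E15.5 over E14.5 in 0 of 13 (median -1.28). Col2a1 stood at 306, 267 and 88.8 CPM, Sox9 at 207, 108 and 43.6 CPM and Cnmd (chondromodulin) at 57.0, 55.4 and 10.1 CPM, whereas Sox6 stood at 1068, 1484 and 1169.5 CPM. Other lists moved between the same libraries: early response and stress genes had a ratio of E15.5 over E14.5 above 0 in 15 of 16 cases (median 0.90), and the ratio of E15.5 over E13.5 was above 0 for 4 of 4 mural genes (median 1.94), 4 of 5 tendon genes (median 2.66) and 0 of 8 neuronal genes (median -3.88). Their part in the other stage values was not tested. The Wnt antagonist gene Dkk2 stood at 72.6, 475 and 598 CPM, and Zfp521 at 404, 1046 and 1199.7 CPM.

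**Figure D5:**
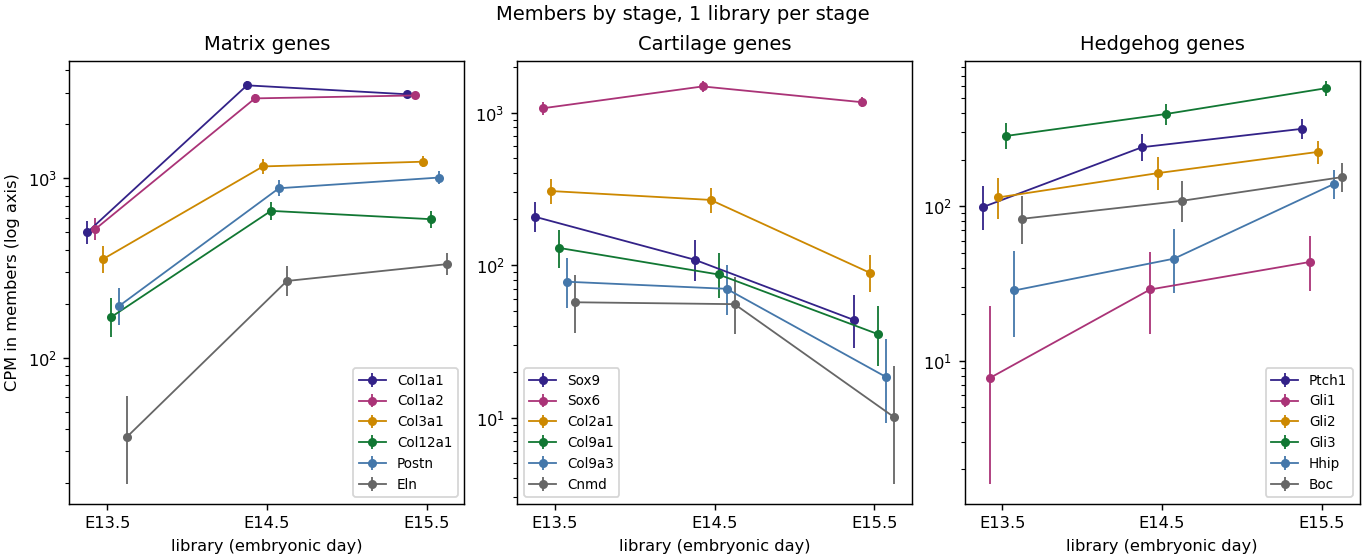
Level in members in CPM (log axis) at the 3 stages for matrix, cartilage and Hedgehog genes; bars are exact Poisson 95% intervals of 1 library per stage. Matrix genes stand lowest at E13.5, the cartilage genes other than Sox6 stand lowest at E15.5, and the Hedgehog genes stand highest at E15.5.

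Of the 6 genes with the lowest ratios of E15.5 to E13.5, Nrxn3 (2035, 43.4 and 13.4 CPM), Egfem1 (267, 14 and 0 CPM), Ina (117, 0 and 0 CPM), Sox2ot (563, 7.23 and 11.7 CPM) and C130071C03Rik (129.6, 7.23 and 0 CPM) had like levels in the set without Runx2, from 118 CPM for Ina to 1899 CPM for Nrxn3 at E13.5, beside neuronal marker sums of 1506 and 2099 CPM. The other was the embryonic globin gene Hbb-y. All 785 Nrxn3 UMIs at E13.5 lay in 27 of 90 members. The highest ratios were those of Dnajc6 (5.18, 198 and 355 CPM), Cpa6, a carboxypeptidase gene (2.59, 62.7 and 151 CPM), Stac (2.59, 53.0 and 131 CPM), Cavin1, a caveolar coat gene (5.18, 77.1 and 132 CPM), Cntn6 (31.1, 441 and 657 CPM) and Ccnb1ip1 (7.78, 154 and 174 CPM). Cntn6, Stac and Cpa6 stood at 137, 20.4 and 46.6 CPM in the E15.5 set without Runx2, below the members' 657, 131 and 151 CPM, which was not tested within 1 stage. For Dnajc6, 48 of 82 UMIs at E14.5 lay in 1 member. Dnajc6, Cpa6, Stac and Cavin1 lay below the floor of 3 UMIs at E13.5 (7.78 CPM).

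Between E14.5 and E15.5 the lowest ratios were those of Uty (0, 53 and 0 UMIs), Gna15 (0, 46 and 0 UMIs, all 46 in 1 member), 4930445E18Rik (0, 42 and 1 UMIs, 42 in 1 member) and Kcnh7 (106, 108 and 18.4 CPM). The highest were those of Caprin2 (18.1, 12 and 124 CPM), Calcrl (7.78, 26.5 and 151 CPM, with 76 of 90 UMIs at E15.5 in 1 member), Pde10a (72.6, 55.4 and 258 CPM) and Xist (609, 308 and 1367 CPM). Uty and Xist mark sex: UMIs of 4 Y-linked genes numbered 0, 121 and 0 in members and 1, 130 and 0 in the set without Runx2. Male RNA was thus detected at E14.5 only, apart from 1 UMI at E13.5, and the sex of the pooled embryos cannot be told apart from the stage in any value above.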

How the data were processed

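UMI counts per gene and barcode were deposited by the authors as 1 matrix per stage, made with Cell Ranger 6.1.2 on mm10, per the submitters' processing notes. The annotation version and whether intronic reads were counted are not given in the sources used here. Every deposited barcode had at least 500 UMIs, and those with at least 500 detected genes were kept. Counts were summed per library and set, and genes were tested with edgeR 4.0.16 (filterByExpr, TMM, quasi-likelihood test, Benjamini-Hochberg adjustment, threshold 0.05). Both sums of a library come from the same pool of 3 embryos, so the library was a block, and n is 3 libraries that are also 3 stages. The rule's genes stayed in library sizes and out of tests. DESeq2 1.42.0 was an alternative. R 4.3.3, Python 3.11.15 and scanpy 1.11.5 were used. The test was also run on counts simulated with a fixed dispersion. Those counts held no single-barcode excess and no link of gene length with the sets, so that run does not bear on either. Scrublet called 0, 0 and 2 doublets and had not worked, so doublets stayed in; high scores were removed in an alternative only. Named genes were the 12 largest folds in each direction against barcodes without Runx2 and the 8 largest in each other comparison (all 3 libraries in 1 direction, at least 30 CPM in the higher set), called list genes and the highest or lowest of a list; between stages, the 6 or 4 largest ratios at 100 CPM or more. Other genes named for their role, and those with values that did not pass, were chosen after their values were seen. The members and lists were chosen with earlier results of these data known. 1 called gene of the lists is counted but not reported here by name.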

Additional observations from a re-analysis of the deposited data

How the results depend on the processing

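The direction of the log2 folds of named genes changed in 5 cases: Cep68 was -0.28 with thinning before the rule, Hba-x was 0.71 with long-gene shares matched, and Hbb-bs against bone-gene barcodes was 0.34 with at most 5 UMIs per gene and barcode, 0.15 without globin-rich barcodes and 0.31 with thinning before the rule. The stage ratio of E15.5 to E14.5 was 0 for Gna15 without other-type barcodes and with thinning before the rule, and -0.96 for Calcrl without other-type barcodes. Of the other recomputed stage ratios, 83 moved by at least 0.5 on the log2 scale and 134 by less. Against barcodes without Runx2, 231 genes were called; the count was 63 with DESeq2, 124 with at least 1 Runx2 UMI, 427 with the limit of 5 UMIs, 51 with long-gene shares matched, 553 without the filter on low counts and 396 without other-type barcodes. Against bone-gene barcodes, 28 became 6 with DESeq2, 13 with at least 1 Runx2 UMI, 11 with at least 2 mesenchymal UMIs, 133 with the limit of 5 UMIs, 44 without high doublet scores, 109 without globin-rich barcodes, 5 with long-gene shares matched, 124 without the filter, 58 without normalization factors, and 14 and 3 with thinning after and before the rule, where 10 of 24 and 0 of 25 of the calls that were tested again passed. Against Pax9 barcodes, 2 became 20 and 30 with at least 1 and 3 Runx2 UMIs, 39 with the limit, 6 without globin-rich barcodes, 5 with long-gene shares matched, 66 without the filter, 5 without other-type barcodes, and 1 and 1 with thinning after and before the rule. Without the replicate block that pairs the sums of a library, the counts were 0, 0 and 1. Leaving out 1 library gave 193 to 401, 9 to 151 and 22 to 52 calls. The share of members among mesenchymal barcodes at E13.5 was 20.1% and 6.91% with at least 1 and 3 Runx2 UMIs, 15.6% with at least 2 mesenchymal UMIs and 7.09% with thinning before the rule; it was 26.2% and 11% at E14.5 with at least 1 and 3 Runx2 UMIs, and 24.5% and 12.2% at E15.5, where thinning before the rule gave 20.4%. The causes were not tested. The limit of 5 UMIs, the removal of globin-rich barcodes and the matching on long genes were chosen after seeing the data. Some settings left only 2 libraries in the bone-gene and Pax9 comparisons.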
